A study of Mus musculus with 18 samples.

Results

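The Polycomb genes described here are the 7 protein-coding genes Ezh1, Ezh2, Eed, Suz12, Bmi1, Cbx7 and Kdm6b. They were taken by name from the GENCODE vM21 annotation of the mouse genome (build mm10), where all 7 were found among 21938 protein-coding genes on chromosomes 1 to 19, X and Y. The locus of each gene was its body plus 10 kb on either side, and every peak of 2 histone marks that fell within it was read from the 8 deposited peak lists. The marks were H3K4me3, which accumulates at active promoters, and H3K27ac, which accumulates at active promoters and enhancers.

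The study collected 18 chromatin samples from the bone marrow of adult wild-type C57BL6 mice, male by the study's methods, with no treatment. Of these, 8 were immunoprecipitated libraries, 2 per mark and cell type, and the other 10 were input controls that carried no list and were not used here. Erythroblasts (ERY) were sorted as Ter119+, CD44+ cells of low forward scatter, and immature megakaryocytes (iMK) as Ter119-, Sca1-, cKit- cells positive for CD41 and CD61. Both sorts also removed cells positive for CD4, CD8, IL7Ra, CD11b, Ly6g or CD45R, and replicates were pools of mice sorted on different days or separate sorter aliquots of the same mice. The p-values below therefore measure the spread between libraries, which in part may be technical. A peak list cannot tell apart fewer cells carrying a mark from less of the mark per cell.

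Polycomb repressive complex 2 (PRC2) methylates lysine 27 of histone H3 through Ezh1 or Ezh2, its alternative catalytic subunits, and needs Eed and Suz12 for activity. Canonical PRC1 contains Bmi1 and a chromobox protein such as Cbx7, which binds the methylated lysine, while Kdm6b is a demethylase that removes it. Ezh2 is the form typical of dividing cells and Ezh1 that of quiescent and differentiated cells, and in human erythroid precursors Ezh1 replaces Ezh2 as cells mature. The same lysine is acetylated in H3K27ac, so that 1 histone tail cannot carry both modifications at that residue. Neither RNA nor Polycomb proteins nor H3K27me3 were analysed here.

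The lists were called separately for each library and differed in extent. H3K27ac lists held 21768 to 25750 peaks and covered 64.9 to 77.0 Mb in ERY and 42.9 to 53.2 Mb in iMK. Their median fold enrichment over input was 3.06 and 2.77 in ERY and 5.79 and 5.65 in iMK. A given fold value therefore does not rank alike in the lists of both cell types. H3K4me3 lists held 6275 to 13222 peaks, and iMK replicate 2 stood apart with 33.8 Mb covered against 9.02 to 16.0 Mb in the other 3. A locus at 0% has no peak in the list, which is not proof that the mark was missing, and the sequencing depth behind the lists, which the study tabulates apart from them, was not used here, so its part in any difference was not tested. All 11 ERY marker genes carried H3K27ac peaks in both ERY libraries, and 3 of the 11 did so in each iMK library, with the globin genes at 0. Of 12 megakaryocyte markers, 7 and 8 carried H3K27ac in the libraries labelled iMK and 5 in each ERY library, with summed locus coverages of 57.8 and 83.5 points in iMK and 180 and 186 points in ERY, and Itga2b (the gene for the sort marker CD41), Gp5, Gp6 and Pf4 were at 0 in both iMK libraries. Of 12 myeloid markers, a class that both sorts should remove, 11 and 12 carried H3K27ac in iMK (summed coverage 265 and 488 points) and 3 and 2 in ERY (17.1 and 9.76 points). Of 8 lymphoid markers, also a class that both sorts should remove, 4 carried H3K27ac in each iMK library (31.8 and 39.7 points) and 1 in each ERY library (27.5 and 17.0 points).

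The stretches of sequence below are shown because they belong to Ezh1 and Bmi1, the members whose H3K27ac coverage passed the test described below. The promoters are the 250 bases before the start site in RefSeq (GRCm38.p6), Ezh1 at chr11:101226464-101226713 on the minus strand and Bmi1 at chr2:18676768-18677017 on the plus strand. The intronic stretch of Ezh1, chr11:101199391-101199690 on the plus strand, lies in no annotated exon and inside an H3K27ac peak found in ERY alone. It was chosen as the window of 300 bases outside exons with the most AGATAA matches. Capitals mark matches, on either strand and with overlapping matches counted separately, to AGATAA for GATA factors, CCGGAAGT for ETS factors, CCNCNCCC for KLF factors, TTTNNCGC for E2F, CCAAT for NF-Y or TTNNNCAA for C/EBP.
Ezh1 promoter: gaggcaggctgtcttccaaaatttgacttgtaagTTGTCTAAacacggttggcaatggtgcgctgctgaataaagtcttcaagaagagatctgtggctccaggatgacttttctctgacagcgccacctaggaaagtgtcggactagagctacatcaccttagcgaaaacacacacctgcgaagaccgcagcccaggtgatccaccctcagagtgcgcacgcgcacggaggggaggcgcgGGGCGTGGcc
Ezh1 intron: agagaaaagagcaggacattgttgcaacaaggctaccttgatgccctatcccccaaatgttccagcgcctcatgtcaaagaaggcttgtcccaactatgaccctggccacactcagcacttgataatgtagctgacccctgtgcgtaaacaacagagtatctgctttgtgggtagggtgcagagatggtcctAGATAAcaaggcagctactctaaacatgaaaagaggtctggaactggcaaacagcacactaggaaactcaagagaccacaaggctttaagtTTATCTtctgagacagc
Bmi1 promoter: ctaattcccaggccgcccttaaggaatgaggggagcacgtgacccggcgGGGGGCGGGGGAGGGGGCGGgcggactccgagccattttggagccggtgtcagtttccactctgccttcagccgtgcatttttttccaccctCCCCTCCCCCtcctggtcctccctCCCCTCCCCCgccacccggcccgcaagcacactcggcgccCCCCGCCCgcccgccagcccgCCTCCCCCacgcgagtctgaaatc
The Ezh1 promoter had 1 KLF and 1 C/EBP match and no AGATAA, and 55.2% of its bases were G or C with 14 CpG dinucleotides. The Bmi1 promoter had 11 KLF matches in runs of C or G, with a GC content of 70.4% and 21 CpGs. Among 32851 RefSeq promoters of the same length, 45.9% held the KLF letters, 33.3% the C/EBP letters and 9.99% AGATAA. The intronic stretch of Ezh1 held 2 AGATAA matches, a count that follows from how it was chosen and is not comparable with the promoter shares. A match is a description of letters and not of a bound site.

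For H3K27ac, 1 of the 7 genes, Ezh1, was covered more widely in ERY and 1, Bmi1, more widely in iMK, and the other 5 did not pass the test. Coverage was the percent of the locus inside peaks, compared between the cell types with limma's moderated test over all protein-coding genes with a peak in at least 1 library, and a gene passed at a Benjamini-Hochberg adjusted p under 0.05. The background was high: 22.0% of the 14467 genes tested passed with higher coverage in ERY and 17.2% with higher coverage in iMK. The members' counts of 1 in each direction are near that background. With 1 library left out the genes passing numbered 917 to 3276 with higher coverage in ERY and 754 to 3248 with higher coverage in iMK, so the background itself moved with single libraries. The median difference between ERY and iMK was 2.11 percentage points over the 7 members and 0.599 points over all genes tested.

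**Figure D1:**
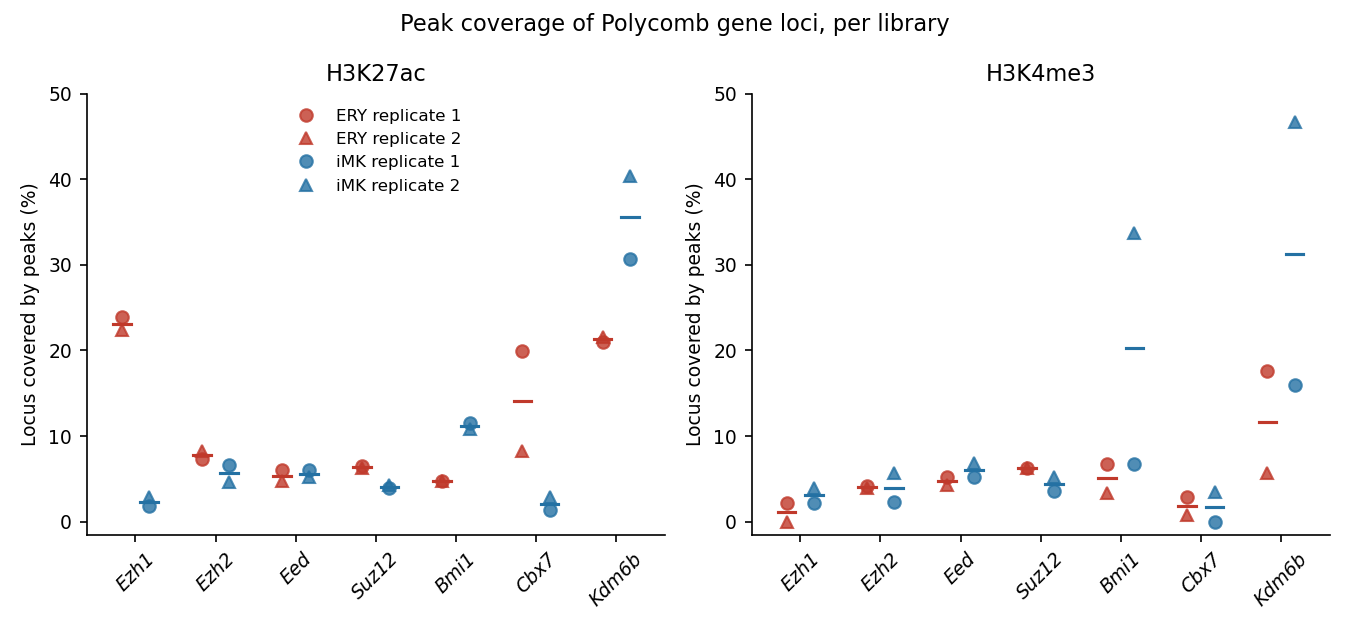
Percent of each Polycomb gene locus covered by H3K27ac (left) and H3K4me3 (right) peaks, with 1 point per library (ERY red, iMK blue; circles replicate 1, triangles replicate 2) and a bar at the mean of each pair. For H3K27ac the ERY and iMK points are far apart at Ezh1 (22.4 and 23.8% against 1.81 and 2.89%), while for H3K4me3 the iMK replicate 2 point lies far above the other 3 at Bmi1 and Kdm6b.

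Ezh1, a catalytic subunit of PRC2 (ENSMUSG00000006920.14, chr11:101191115-101226463, minus strand), showed the largest H3K27ac difference of the 7. Peaks covered 23.8% and 22.4% of its locus in ERY replicates 1 and 2, and 1.81% and 2.89% in iMK replicates 1 and 2. The groups did not overlap, and the gap between them was many times the spread within either. The difference was 20.8 points (SE 1.27, 2 libraries per cell type, limma adjusted p = 0.00656). The ERY lists cover more of the genome, and after quantile normalization of coverage across libraries the difference was 17.5 points (adjusted p = 0.00282). With a flank of 25 kb, which takes in more sequence beyond the gene, it was 11.6 points (adjusted p = 0.00798).

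This difference in coverage did not lie at the start of the gene. At the 5′ promoter of Ezh1 an H3K27ac peak was listed in all 4 libraries, 1400 bp wide in both ERY replicates and 1000 and 1600 bp in iMK. Its fold enrichment over input was 10.8 and 8.99 in ERY and 14.0 and 6.60 in iMK. The cell types thus overlapped in both width and fold enrichment. By rank within its own list the peak did not overlap between cell types. It stood above 98.8% and 98.7% of peaks in ERY and above 86.8% and 59.7% in iMK. Such separation was not particular to Ezh1. The Suz12 promoter peak ranked above 94.3% and 97.4% in ERY and 87.7% and 93.8% in iMK. At Eed the iMK ranks were the higher (97.7% and 97.2% against 93.6% and 95.7%), and at Ezh2 the ranks overlapped. The share over all genes was not computed. The additional coverage of Ezh1 in ERY came from a domain over the 3′ end of the gene, chr11:101186601-101196000, and from an intronic region, chr11:101198201-101202000, neither of which had any peak in iMK.

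The 3′ domain comprised 8600 bp of peaks in ERY replicate 1 and 8000 bp in ERY replicate 2. In replicate 1 it was a single peak with a fold enrichment of 6.86, higher than 92.4% of the peaks of that list. In replicate 2 it was split into a 6000 bp peak with a fold enrichment of 3.79 and a 2000 bp peak of 1.56, and the weaker of these ranked above only 4.75% of its list. The domain thus was present in both ERY replicates but unequal in strength along its length.

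The intronic region of Ezh1 was weaker. It was 3200 and 3000 bp wide in the ERY replicates, with fold enrichments of 2.17 and 1.47, above 18.5% and 2.06% of the peaks in their own lists. With only peaks of q of at most 1e-10 kept, the Ezh1 difference was 16.3 points and no longer passed (adjusted p = 0.0724, the only one of 13 alternative settings in which it did not pass; the other 12 gave 0.00282 to 0.0394). Bases found in both ERY lists and in no iMK list amounted to 9600 bp in the Ezh1 locus, in 3 stretches, and held 9 AGATAA matches, or 0.938 per kb. All such stretches in the genome, 35304800 bp, held 0.693 per kb. The same Ezh1 bases held 3.65 KLF matches per kb against 1.52 genome-wide, and 0.208 E2F matches against 0.055. Densities of NF-Y (1.35 against 1.36), C/EBP (1.67 against 2.015) and ETS (0 against 0.00912) were lower than genome-wide. The 3 stretches of Ezh1 were uneven. AGATAA had 5 matches in the 2400 bp of the intronic region (2.08 per kb), 4 in 5200 bp (0.769 per kb) and 0 in 2000 bp. The 2400 bp stretch holds an annotated internal start site and so is not intron throughout. Of the 35 KLF and 2 E2F matches, 33 and 2 lay in the 5200 bp stretch (6.35 and 0.385 per kb), which runs past the 3′ end of Ezh1. The 2400 and 2000 bp stretches held 1 KLF match each (0.417 and 0.5 per kb) and 0 E2F matches.

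The 3′ domain also ran into Cntnap1, a gene of axon-glia contacts that lies just beyond the end of Ezh1. The locus of Cntnap1, which contains the same domain, was covered over 27.7% and 24.2% in ERY and 4.48% and 3.48% in iMK, so the peaks do not assign the domain to either gene. When bases in the bodies of other genes were left out, an alternative added after the data were seen, the Ezh1 difference was 17.0 points (adjusted p = 0.0154). No peak at the Ezh1 locus touched the promoter of another protein-coding gene.

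**Figure D2:**
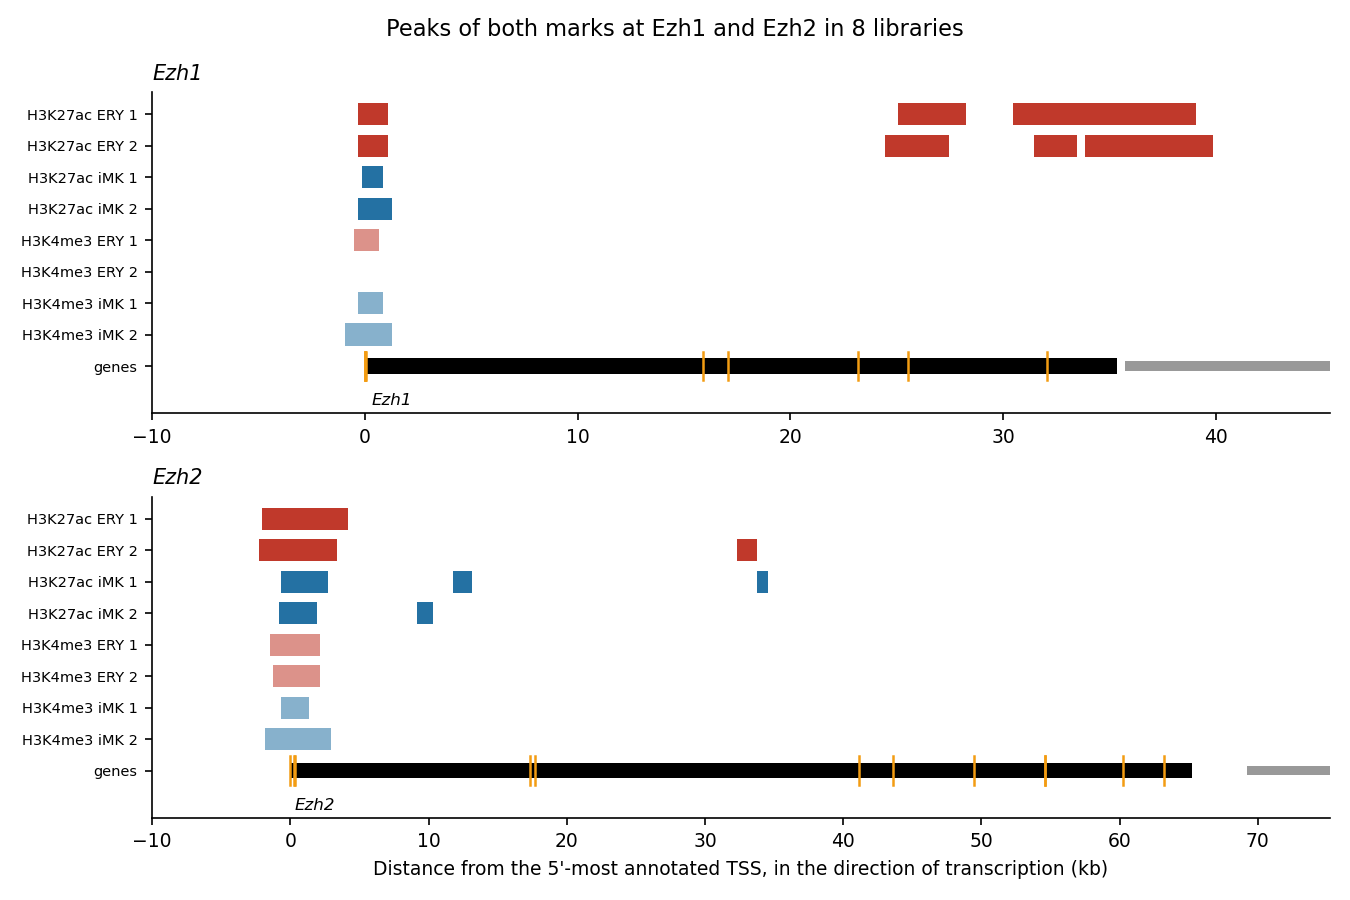
Peaks of both marks in each of the 8 libraries at Ezh1 (top) and Ezh2 (bottom), against distance in kb from the 5′-most annotated start site, with genes drawn beneath (black, the named gene; grey, neighbours; orange ticks, annotated start sites). At Ezh1 the peaks past 20 kb are in ERY alone, whereas at Ezh2 each library has 1 peak of each mark over the 5′ promoter.

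At Ezh2, the other catalytic subunit (ENSMUSG00000029687.16, chr6:47530139-47595341, minus strand), the H3K27ac coverage of ERY and iMK did not differ by the test. Coverage was 7.28% and 8.22% in ERY and 6.57% and 4.69% in iMK. The ERY values were the higher, but the gap between the closest libraries was smaller than the spread within either pair. The difference was 2.11 points (SE 1.06, limma adjusted p = 0.209), and it passed in 1 of 13 alternatives, when every list was cut to an equal number of its strongest peaks (2.93 points, adjusted p = 0.0490; up to 0.732 in the others).

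Nearly all H3K27ac at Ezh2 lay in a single promoter region, chr6:47591201-47597600. Its peaks were 6200 and 5600 bp wide in ERY and 3400 and 2800 bp in iMK, while their fold enrichments were 6.17 and 11.7 in ERY and 17.8 and 18.6 in iMK. ERY peaks were therefore wider and iMK peaks had the larger fold enrichment. Within their own lists all 4 ranked high, above 89.0 to 99.6% of the peaks. Another 4 intronic H3K27ac peaks of 800 to 1400 bp were each listed in a single library and in no other.

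Promoter peak width was compared as log2 of the bases in peaks touching a window of 1 kb either side of an annotated start site, for the 4 members marked in all 4 libraries. Of the 7897 genes tested, 20.7% had wider H3K27ac peaks in ERY and 2.91% in iMK. Ezh2 was 1.91-fold wider in ERY (log2 difference 0.93, SE 0.18, limma adjusted p = 0.0444), but the median gene was also 1.33-fold wider, and after centring each library on its median width Ezh2 no longer passed (0.47, adjusted p = 0.216; 0.0439 to 0.216 over its alternatives). Suz12 (log2 0.64, adjusted p = 0.0555) and Eed (log2 -0.06, adjusted p = 0.835) did not pass. Ezh1 passed (log2 2.86, adjusted p = 0.0361) with its 3′ and intronic peaks counted, which touch internal start sites, and at its 5′-most start site alone the log2 difference was 0.15 (adjusted p = 0.746; 0.00690 to 0.746 over its alternatives). With any 1 library left out the log2 difference ranged from 2.34 to 3.38 at Ezh1 and from 0.79 to 1.07 at Ezh2. Neither passed in those fits, nor did any other gene tested, so they cannot tell Ezh1 or Ezh2 from the rest.

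The relation of the paralogs within each library was read as Ezh1 coverage minus Ezh2 coverage. For H3K27ac this was 16.6 and 14.2 points in the ERY replicates and -4.77 and -1.80 points in the iMK replicates. Ezh1 was thus the more widely covered of the pair in both ERY libraries and Ezh2 in both iMK libraries. The difference between cell types was 18.7 points, and the exact two-sided permutation test gave p = 0.33, the smallest value that 2 against 2 libraries allow. For H3K4me3 the values were -2.06 and -3.99 points in ERY and -0.18 and -1.66 points in iMK, a difference of -2.10 points (exact permutation p = 0.33), so for this mark Ezh2 was the more widely covered in all 4 libraries.

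Eed and Suz12, the non-catalytic core subunits of PRC2, each had 1 H3K27ac peak, at the promoter, in all 4 libraries. Coverage of the Eed locus (ENSMUSG00000030619.9, chr7:89954654-89980983) was 6.04% and 4.75% in ERY and 6.04% and 5.18% in iMK. These values overlapped completely, and the difference was -0.22 points (SE 0.822, limma adjusted p = 0.841). The Eed peak ranked above 93.6 to 97.7% of the peaks of each H3K27ac list.

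Suz12 (ENSMUSG00000017548.15, chr11:79993106-80034123) was covered over 6.56% and 6.23% in ERY and 3.93% and 4.26% in iMK. All of this was the promoter peak, of 4000 and 3800 bp in ERY and 2400 and 2600 bp in iMK. The groups did not overlap, but the difference of 2.29 points (SE 0.547) narrowly missed the threshold (limma adjusted p = 0.0542). It passed in 2 of 13 alternatives, with lists cut to equal numbers of peaks (adjusted p = 0.0445) and with other genes' bodies left out (adjusted p = 0.0432; up to 0.169 in the others).

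Bmi1, a RING-domain partner in canonical PRC1 that is needed for stem cell self-renewal (ENSMUSG00000026739.13, chr2:18677018-18686629, plus strand), was the member with higher H3K27ac coverage in iMK. Coverage was 4.73% in both ERY libraries and 11.5% and 10.8% in iMK. The groups were separate, with a difference of -6.42 points for ERY minus iMK (SE 0.813, limma adjusted p = 0.0166). Without ERY replicate 1 or ERY replicate 2 the difference did not pass (adjusted p = 0.0614 and 0.0540; 0.0124 to 0.0614 over 13 alternatives). The summed coverage of the 12 myeloid markers, 265 and 488 points in iMK and 17.1 and 9.76 points in ERY, was higher on the same side here as at Kdm6b, Kdm2b and Cbx2 below, and its part in these values was not tested.

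All H3K27ac in ERY at this locus lay at the promoter of the upstream neighbour Commd3, where each of the 4 libraries had a peak of 1200 to 1600 bp. The peak over the Bmi1 promoter shown above, chr2:18676601-18677600, was in iMK alone, 1000 and 800 bp wide. Its fold enrichment was 14.5 in both iMK replicates, above 87.8% and 91.6% of the peaks in their lists. A second iMK-only region lay at the promoter of Spag6, a gene of motile cilia downstream of Bmi1, and with peaks at other genes' promoters left out the Bmi1 difference was -3.04 points (adjusted p = 0.0141), and with a 25 kb flank it was -3.19 points (0.0176). H3K4me3 was listed at the Bmi1 promoter in ERY replicate 1 (800 bp) as well as in iMK (1000 and 3000 bp), so this promoter was not unmarked in every ERY library.

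**Figure D3:**
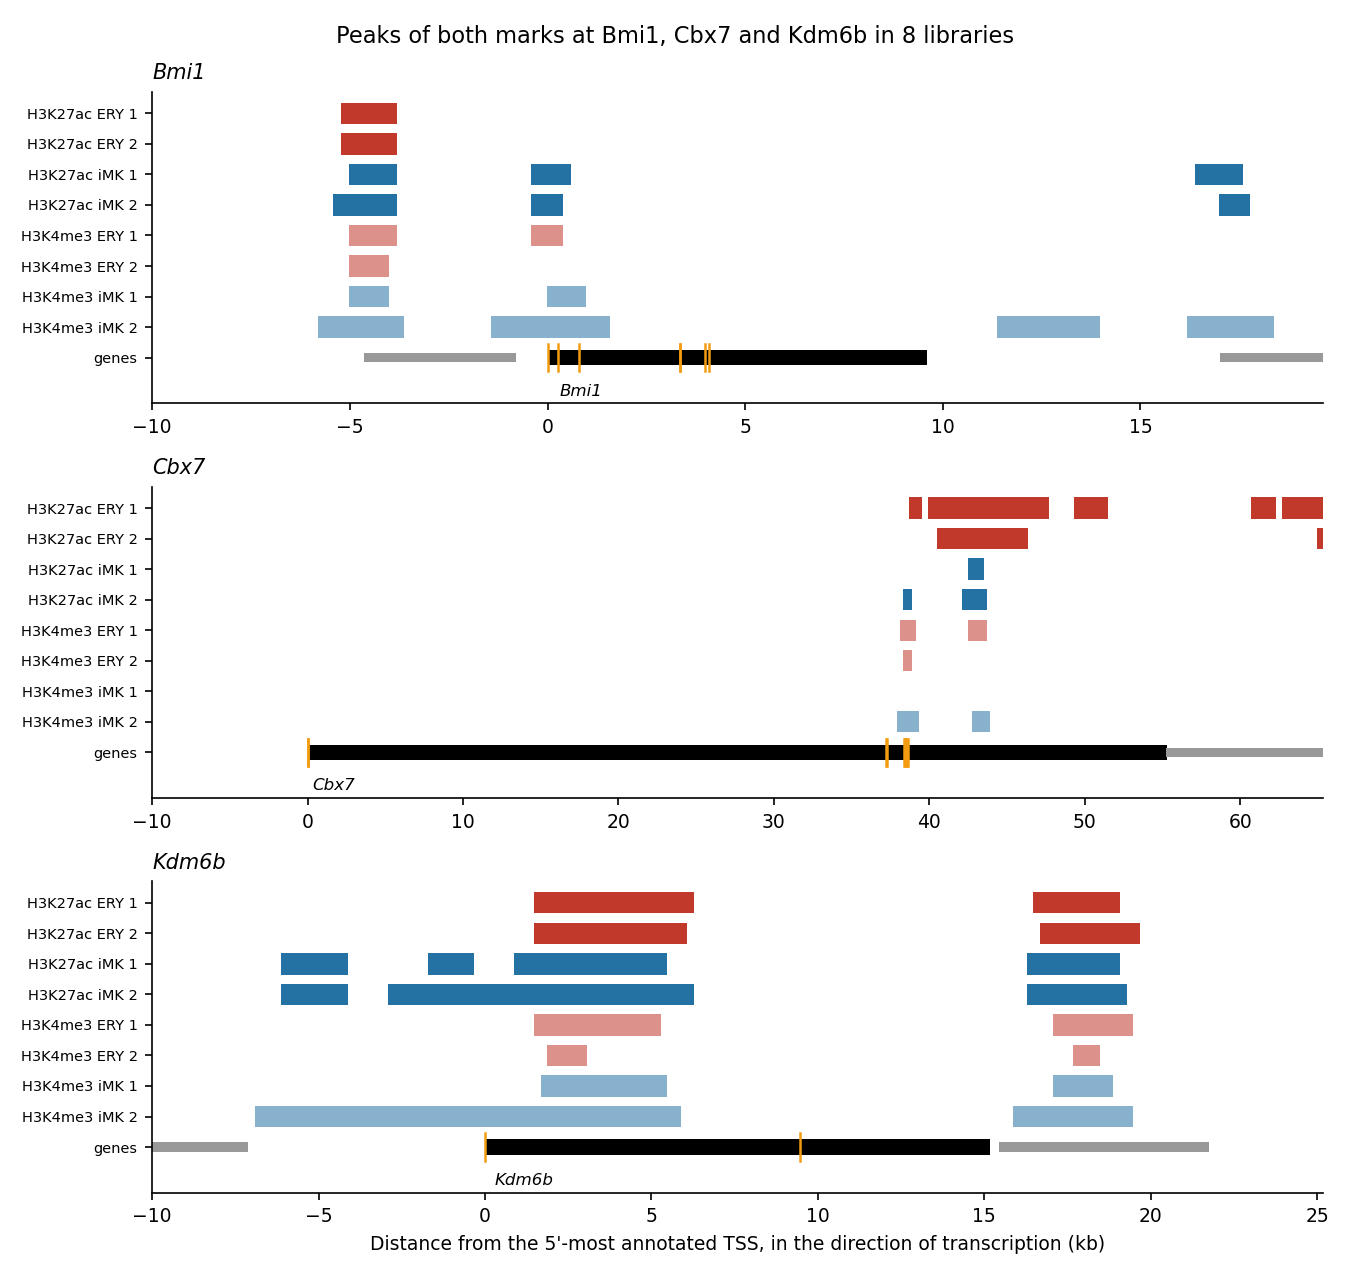
Peaks of both marks in each of the 8 libraries at Bmi1, Cbx7 and Kdm6b, against distance in kb from the 5′-most annotated start site, drawn as for Ezh1 and Ezh2. H3K27ac at the Bmi1 start site is in iMK alone, the Cbx7 gene body carries wide ERY peaks, and Kdm6b has peaks upstream of its start site in iMK alone.

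Cbx7, a chromobox reader of methylated H3K27 (ENSMUSG00000053411.16, chr15:79915807-79971119, minus strand), had the largest spread between ERY replicates. H3K27ac covered 19.9% and 8.22% of its locus in ERY and 1.33% and 2.92% in iMK. Both ERY values were above both iMK values, but the 11.9 points between the means (SE 4.74) did not pass (limma adjusted p = 0.141). It passed with a 25 kb flank (15.9 points, adjusted p = 0.0435), after quantile normalization (10.4 points, 0.0322) and without ERY replicate 2 (17.8 points, 0.0434), and adjusted p reached 0.438 in the other alternatives.

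The shared element of the Cbx7 locus was an intronic region, chr15:79923401-79931200. It was 7800 and 5800 bp wide in ERY and 1000 and 1600 bp wide in iMK, and the narrow iMK peaks lay inside the ERY peaks. The fold enrichments, 7.28 and 4.57 in ERY against 6.35 and 8.29 in iMK, overlapped. Ranked within their own lists, these peaks did not overlap between cell types. The lower-ranked ERY peak, in replicate 2, stood above 83.6% of its list. The higher-ranked iMK peak, also in replicate 2, stood above 71.8% of its list. At the internal start sites of Cbx7 H3K27ac was listed in ERY replicate 1 and iMK replicate 2 only, and the 5′-most start site had no peak of either mark in any library. An ERY-only region lay at the promoter of Apobec3, the cytidine deaminase gene downstream.

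Kdm6b, the H3K27 demethylase (ENSMUSG00000018476.7, chr11:69398508-69413675, minus strand), was the most widely covered member in iMK. H3K27ac coverage was 21.04% and 21.61% in ERY and 30.7% and 40.4% in iMK. The groups did not overlap, but the iMK replicates were far apart and the difference of -14.2 points (SE 4.25) did not pass (limma adjusted p = 0.0839). It passed after quantile normalization (-33.5 points, adjusted p = 0.00312) and without iMK replicate 1 (-19.1 points, 0.0435), and with a 25 kb flank it turned to 3.67 points (0.360; 0.00312 to 0.487 over 13 alternatives).

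Within Kdm6b the peaks differed in where they lay. A gene-body region, chr11:69407401-69416600, was listed in all 4 libraries with 4800 and 4600 bp in ERY and 6000 and 9200 bp in iMK. The ERY peaks ended inside the gene, and only the iMK peaks reached within 1 kb of the 5′ start site. The largest fold enrichment in it was 2.97 and 2.02 in the ERY replicates and 22.2 and 14.8 in iMK. A further peak of 2000 bp upstream of the gene, chr11:69417801-69419800, was in both iMK libraries and neither ERY library. A region shared by all 4 libraries at 2600 to 3000 bp lay over the promoters of the neighbours Cyb5d1, Naa38 and, in iMK, Tmem88.

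Counted by promoter calls, a peak within 1 kb of any start site, 4 members were marked by H3K27ac in all 4 libraries (Ezh1, Ezh2, Eed and Suz12), which was the case for 36.0% of all 21938 genes. Bmi1 and Kdm6b were called in both iMK libraries and neither ERY library, a class holding 8.56% of all genes, and no member was in the reverse, ERY-only class (2.17% of all genes). Cbx7 was called in 1 library of each cell type, and 1340 of the 21938 genes were likewise called in some replicates only. With a window of 2.5 kb Kdm6b joined the shared class and Bmi1 was the only iMK-only member.

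H3K4me3 coverage did not pass the limma test at any member, nor at any of the 13561 genes tested (0% in ERY and 0% in iMK), although 64 genes had higher coverage in ERY and 418 in iMK at an unadjusted p under 0.05. At Ezh1 coverage was 2.17% and 0% in ERY and 2.17% and 3.97% in iMK, and at Ezh2 it was 4.23% and 3.99% against 2.35% and 5.63%. The groups overlapped or touched at both genes, with adjusted p of 0.832 and 0.996. No H3K4me3 peak was listed over the ERY-only H3K27ac domain at the 3′ end of Ezh1.

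The widest H3K4me3 was in iMK replicate 2, the library with the largest list. Its list also differed at marker genes. H3K4me3 was at 6 of 6 stem and progenitor markers (summed coverage 56.7 points) and 11 of 12 myeloid markers (252 points). In iMK replicate 1 it was at 0 and 4 of these (0 and 31.3 points). Megakaryocyte markers with H3K4me3 numbered 8 of 12 in iMK replicate 2 and 4 of 12 in iMK replicate 1. The part of list size or of cell content in the values below was not tested. At Bmi1 coverage was 6.75% and 3.38% in ERY and 6.75% and 33.8% in iMK, and at Kdm6b it was 17.6% and 5.69% in ERY and 15.9% and 46.6% in iMK. In each case iMK replicate 1 lay within or at the edge of the ERY values. Without iMK replicate 2 the Bmi1 difference was -1.69 points in place of -15.2. The Kdm6b peak of that library was 12800 bp wide and crossed the start site, where the peaks of the other 3 libraries, of 1200 to 3800 bp, stayed inside the gene.

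Eed and Suz12 had H3K4me3 promoter peaks in all 4 libraries, as did Ezh2, a shared class that held 24.6% of all genes. Coverage was 5.18%, 4.32%, 5.18% and 6.91% at Eed and 6.23%, 6.23%, 3.61% and 5.24% at Suz12, in the order ERY replicates 1 and 2 and iMK replicates 1 and 2. The other 4 members were called in some replicates only, as were 5216 of all 21938 genes. Cbx7 was called in both ERY libraries and iMK replicate 2, and Ezh1 in every library but ERY replicate 2. No member was ERY-only or iMK-only for H3K4me3, classes with 0.378% and 4.89% of all genes, although Cbx7 became ERY-only without iMK replicate 2, at q of at most 1e-10 and with lists cut to equal numbers of peaks. Ezh1 and Bmi1 became iMK-only without ERY replicate 1, Kdm6b without iMK replicate 1 and Bmi1 at that q limit. Peak widths of this mark did not pass at Ezh2, Eed or Suz12 (adjusted p = 1 at each), in a test that 0% of 5398 genes passed with wider peaks in ERY and 0.0185% in iMK.

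The other Polycomb genes were read from lists chosen with earlier results of these data known: 39 names, of which 38 were annotated and 33 had H3K27ac in at least 1 library. By the limma test 6 were more widely covered in ERY and 2 in iMK, and 25 did not pass, beside 22.0% and 17.2% of all genes tested, so neither count exceeded the share over all genes. The median difference was 0.178 points against 0.599 over all genes. The 5 with no H3K27ac peak in any library were Epop, Scml2, Asxl3 and the known Polycomb targets Cdkn2a and Cdkn2b, both cell-cycle inhibitor genes. Over all 21938 genes, 14467 had such a peak in at least 1 library, so a locus without one was not unusual. H3K4me3 was listed at the Cdkn2a promoter in both iMK libraries and neither ERY library (locus coverage 2.99% and 4.98%), and at the Cdkn2b promoter in iMK replicate 2 alone.

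**Figure D4:**
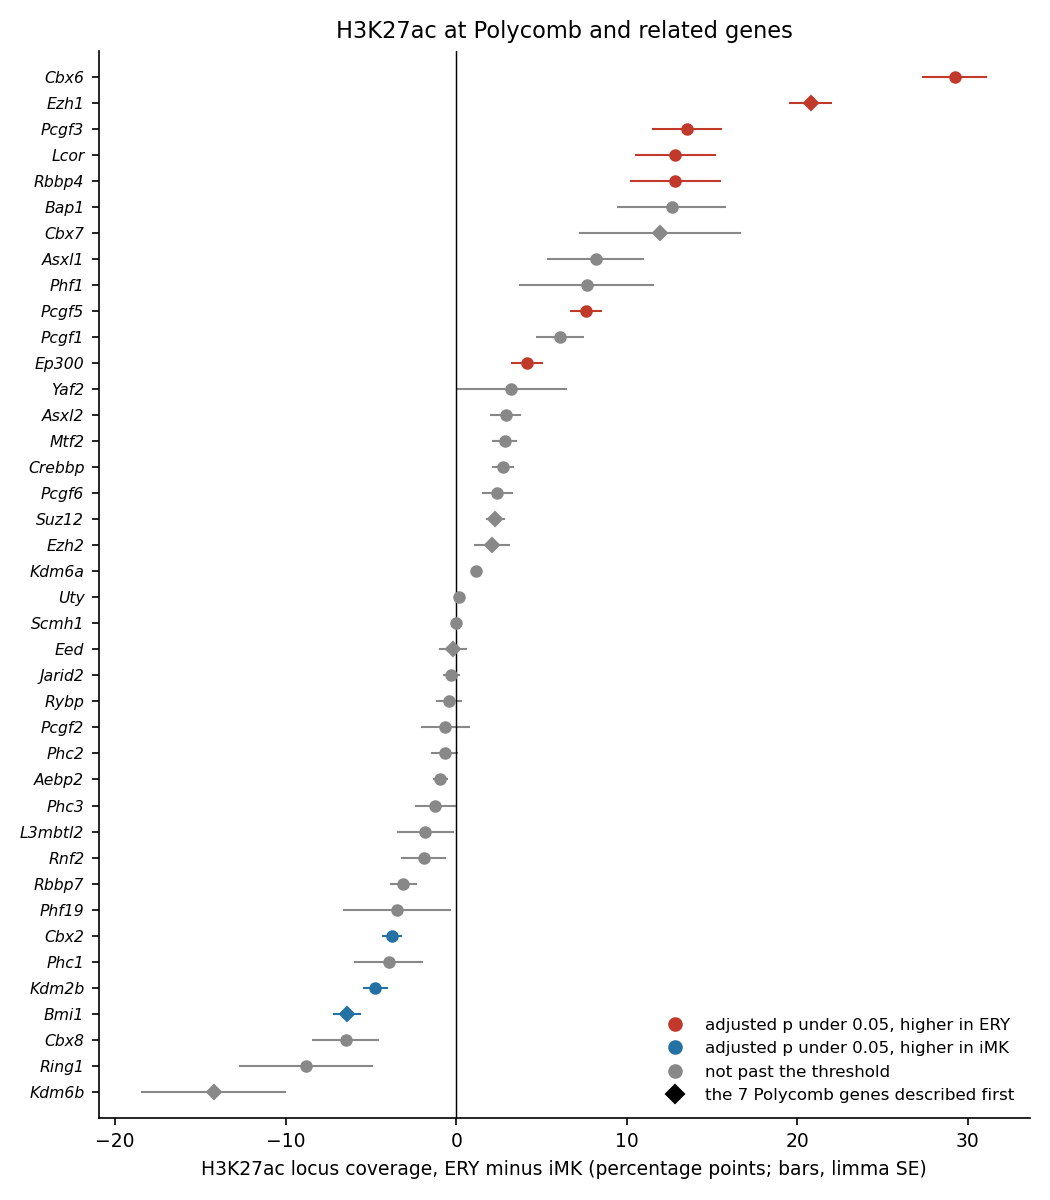
H3K27ac locus coverage in ERY minus iMK, in percentage points, for the 7 members (diamonds) and 33 other Polycomb and related genes (circles), with limma standard errors. Coloured genes passed at an adjusted p under 0.05 (red, higher in ERY; blue, higher in iMK); Cbx6 and Ezh1 lie at the ERY end and Kdm6b, which did not pass, at the iMK end.

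Among PRC2 partners 2 of the 8 tested passed, both with higher coverage in ERY, a share near the 22.0% of all genes: the histone chaperone Rbbp4 (12.8 points, adjusted p = 0.0412) and Lcor (12.8 points, adjusted p = 0.0332), whose locus encodes a PRC2-associated protein. Among PRC1 genes 3 of 18 were higher in ERY and 2, Kdm2b and Cbx2, in iMK, neither above the 22.0% and 17.2% of all genes. Pcgf3 (13.5 points, adjusted p = 0.0225) and Pcgf5 (7.61 points, adjusted p = 0.0154), which are Bmi1 paralogs of variant PRC1, were on the ERY side. Kdm2b, which recruits variant PRC1 to CpG islands, was on the iMK side (-4.74 points, adjusted p = 0.0243). None of the 3 PR-DUB genes or the 2 other H3K27 demethylase genes passed, and of the 2 acetyltransferase genes Ep300 did (4.15 points, adjusted p = 0.0485).

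Of the chromobox paralogs of Cbx7, Cbx6 passed with higher coverage in ERY and Cbx2 with higher coverage in iMK. Cbx6 coverage was 31.2% and 27.3% in ERY and 0% in both iMK libraries (adjusted p = 0.00687), and its promoter was called in ERY alone for H3K27ac and in all 4 libraries for H3K4me3. Cbx2 had 0% in both ERY libraries and 3.07% and 4.49% in iMK (adjusted p = 0.0242). Cbx8, also at 0% in ERY and at 4.05% and 8.92% in iMK, did not pass (adjusted p = 0.0852). The Cbx2 promoter had no H3K27ac call in any library, while that of Cbx8 was called in both iMK libraries alone. The loci of Cbx2 and Cbx8 on chromosome 11 share 14966 bp, so their values are not independent, whereas Cbx6 and Cbx7 lie 81118 bp apart on chromosome 15 and their loci do not overlap.

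The genes most like Ezh1 and Ezh2 were those with the smallest Euclidean distance in coverage over the 8 libraries. For Ezh1 they were Rab18 (2.57 points), Thumpd2 (3.53 points) and Il1r1 (3.68 points). For Ezh2 they were Esd (1.81 points), Aamdc (2.03 points) and BC035947 (2.09 points). Rab18, for example, had H3K27ac coverage of 24.8% and 21.9% in ERY and 1.99% and 1.74% in iMK, close to the values of Ezh1.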

How the data were processed

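Peak lists were read for 8 ChIP-seq libraries (H3K4me3 and H3K27ac, 2 ERY and 2 iMK each); the 10 input libraries had no list. Bowtie 1.0.0, SICER 1.1 and build mm10 stand in the notes on processing that the submitters gave, while the study's methods name Bowtie and MACS, and which caller made the lists is not settled by these sources. All peak edges fall on 200 bp steps. For each peak the authors deposited its position, a fold enrichment ratio over input and a p-value and q-value, with q under 0.01 throughout. The lists hold no read counts, and the depths that the study tabulates for its libraries were not used, so no counting interval was computed and depth was not matched between libraries.

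The percent of each locus in peaks and the log2 promoter peak width were computed with Python 3.11.15 (pandas 2.3.3, numpy 2.4.6) from GENCODE vM21. ERY and iMK were compared with limma 3.58.1 (R 4.3.3; moderated test with a trend, two-sided, Benjamini-Hochberg adjustment over all genes tested, threshold 0.05). The code was also run on simulated normal values with known shifts. Such values do not reproduce loci at 0%, so that run is no evidence for the calls given here. Genes with no peak of a mark in any of its 4 libraries were not tested. Exact permutation tests were used for single values. Replicate numbers follow accession order and pair nothing.

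Named genes were the members; other listed Polycomb genes past the threshold, up to 4 with the largest difference per mark and direction, with all named where a count was 5 or fewer (Cbx8 and Cntnap1 were added after their values were seen); neighbours whose promoters a peak touched; and the 3 genes nearest to Ezh1 and to Ezh2. A listed gene is not reported here and was left out of the list counts. The members, lists and tests were chosen with earlier results of these data known. Alternatives were other flanks, promoter windows, peak thresholds, normalizations and filters, and leaving out each library. Sequences are from RefSeq (GRCm38.p6), with 6 of 7 members matched in the promoter table, and sequences that overlap annotated exons were not printed.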

Additional observations from a re-analysis of the deposited data

How the results depend on the processing

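Of 397 alternative values computed, 320 kept their direction and side of the threshold (counts within 1.5 times), 14 no longer passed, 8 newly passed, 13 changed sign and 42 were counts that moved by more than 1.5 times. No paired analysis was possible because the labels number no replicates. With a 25 kb flank the H3K27ac difference turned to 3.67 points at Kdm6b and 4.85 at Eed, and H3K4me3 turned to -0.11 at Suz12 and -0.38 at Cbx7. After quantile normalization Eed turned to 0.77 points for H3K4me3. With 1 library left out, H3K27ac at Eed ranged from -0.86 to 0.43 points (log2 width -0.24 to 0.11), and H3K4me3 from -1.59 to 1.86 points at Cbx7 and from -1.53 to 1.76 points at Ezh2 (log2 width -0.46 to 0.81). None of the values with a changed sign passed, and the cause was not tested.

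With 1 library left out, genes with higher H3K27ac coverage ranged from 917 to 3276 (ERY) and 754 to 3248 (iMK), and with higher H3K4me3 coverage from 0 to 20 and 0 to 4099, the last without iMK replicate 1; without iMK replicate 2 it was 986. By limma, width counts were 0 in every such fit for both marks. Quantile normalization called 113 (ERY) and 177 (iMK) genes for H3K4me3 coverage, and no filter 1 and 2. Centred widths gave 884 genes wider in iMK for H3K27ac, and 37 (ERY) and 16 (iMK) for H3K4me3, whose single call fell to 0 with the 5′-most start site alone or q of at most 1e-10. A 2.5 kb window left 1 iMK-only H3K27ac promoter among the members. For H3K4me3 the members' shared promoters numbered 3 to 5 and iMK-only promoters 0 to 2 with 1 library left out, and 1 member was iMK-only at q of at most 1e-10. Without iMK replicate 2, at that q limit, or with lists cut to equal length 1 member, Cbx7, was ERY-only for H3K4me3. In the same fits the Ezh1 minus Ezh2 difference ranged from 17.2 to 20.1 points for H3K27ac and from -3.07 to -1.14 for H3K4me3, and with a 25 kb flank it was 10.04 and -6.30 points. A lone library is assumed in these fits to vary like the other pair.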
